A study of Homo sapiens with 15 samples.

Results

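The return of DNA methylation after the shRNA against UHRF1 was switched off was followed in 3 clones of HCT116, a human colorectal carcinoma cell line. The members are the Knockdown and Recovery libraries of clones Cl.3, Cl.6 and Cl.9, chosen by their labels, which gives 6 of the 15 whole-genome bisulfite libraries. Every clone carried a doxycycline-inducible shRNA against UHRF1. Knockdown cells had grown for 14 days with 10 ng/mL doxycycline, and Recovery cells were taken on day 28, after those 14 days and a further 14 days without the drug. The Baseline library of each clone, cells kept for 14 days without doxycycline, gave the level before the loss. No Baseline of day 28 was used here, so change with time in culture and recovery cannot be told apart. UHRF1 itself was not measured in these libraries, so neither its depletion nor its return was checked. The libraries of 2 bulk populations with an shRNA against DNMT1 (R1 and R2), sampled at the same stages, were set beside the clones. The shUHRF1 libraries all come from clones and the shDNMT1 libraries from bulk cultures with a count table of their own, so in any difference between them shRNA, clonality and table cannot be told apart. Cl.9 also has a count table apart from the shared one of Cl.3 and Cl.6, so where Cl.9 differs from them clone and table cannot be told apart.

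UHRF1 binds hemimethylated CpGs behind the replication fork and, through its ubiquitin ligase activity on histone H3, recruits DNMT1, which copies the mark to the new strand. DNMT3A and DNMT3B can methylate CpGs that carry no mark on either strand. Maintenance copies a mark from the parental strand to the new strand of the same DNA duplex, so a CpG unmethylated on both strands is not its substrate.

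The 6 libraries held between 315732617 and 590592161 reads at CpGs. A CpG was read 11 to 13 times at the median in the libraries of Cl.3 and Cl.6 and 19 to 20 times in those of Cl.9, and CpGs with at least 5 reads made up between 80.4% and 87.8% of all. The methylation level (mC) is the share of reads that read C. At 20 reads the 95% Wilson interval of a CpG at 50% reached 20.1 percentage points on either side, so the comparisons below rest on classes, windows and promoters, and the single CpGs printed are examples given with their reads, some of them under 20. Intervals cover counting error only. The replicate is the clone (n = 3), and an exact two-sided sign-flip permutation over 3 clones cannot give p below 0.25.

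The first comparison asked how the gain was spread over CpGs. Methylation rose in every clone, by 5.24 points in Cl.3, 8.87 in Cl.6 and 11.1 in Cl.9 over all CpGs with at least 5 reads in both libraries (mean 8.40 ± 2.95, SD, n = 3, higher in 3 of 3 clones, exact sign-flip p = 0.25, the smallest this design allows). The clone that had lost the most, Cl.9, gained the most points. Among CpGs, 53.3% in Cl.3, 64.9% in Cl.6 and 69.9% in Cl.9 were higher at Recovery, while 24.2%, 18.7% and 15.8% were lower. A rise of 0.3 or more in mC was seen at 5.19%, 8.48% and 11.4% of CpGs. A fall of that size was seen at 0.986%, 0.655% and 0.311%, fewest in the most deeply sequenced clone, and these shares include counting error. In R1 and R2 a fall of that size was seen at 0.0321% and 0.0361% of CpGs.

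CpG by CpG, Fisher's exact test with Benjamini-Hochberg adjustment called 6 gained CpGs in Cl.3 (2.65e-05% of those tested), 103 in Cl.6 (0.000438%) and 278848 in Cl.9 (1.1%). Lost CpGs numbered 0 in Cl.3 and 0 in Cl.6, where 43042 and 31533 fell at an unadjusted p under 0.05, and 87 in Cl.9 (0.000343%). Cl.9 had both the greatest depth and the largest gain, and a test on reads compares those libraries only. In Cl.9, 1.71% of the CpGs in highly methylated domains (HMDs) were called gained against 0.153% of those in partially methylated domains (PMDs), as the Baseline domain lists of the clone place them. The other clones, with few calls, did not show this: 0.000403% against 0.000383% in Cl.6, and 0 against 3 CpGs in Cl.3. Of the CpGs called lost in Cl.9, 26 lay in HMDs (0.000165%) and 36 in PMDs (0.000983%). All 6 CpGs called in Cl.3 were also called in the other clones, and 0 were called lost in all 3 clones. The first 4 of them, ranked by the smallest change over the clones, lay at positions with at least 2254 reads in every clone library. The first pair is shown here on hg38, plus strand, as examples of the positions called in every clone. The CpGs are in capitals.
chr1:125183699-125183728: tCGatgattccattCGattccattcaatga
chr16:46390695-46390724: atCGaaatcattatCGaatggaatcaaatg
The second CpG of the chromosome 1 stretch was covered by 2893 to 6526 reads in the clone libraries and went from 64.1% to 71.8% in Cl.3, from 54.5% to 62.9% in Cl.6 and from 33.96% to 43.3% in Cl.9. Its counterpart on chromosome 16, with 3299 to 7472 reads, went from 66.9% to 74.5%, from 56.9% to 67.7% and from 38.5% to 48.98%. Each rose in all clones by a similar number of points. The annotation places no gene at either site. Both depths lie far above the median of a CpG, 11 to 20 reads in the clone libraries. Whether reads of other genome copies were placed there was not tested, so neither value is shown to be that of a single genomic CpG.

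The next comparison asked whether the gain differed by CpG density, among the highly methylated CpGs, those with an mC of 0.85 or more in the Baseline library of the clone. Low-density CpGs, whose nearest CpG is at least 20 bp away, rose from 79.3% to 86.9% in Cl.3, from 71.5% to 84.6% in Cl.6 and from 53.8% to 71.2% in Cl.9. High-density CpGs rose from 87.6% to 92.4%, from 81.8% to 90.9% and from 69.8% to 82.4%. The low-density CpGs thus gained more points in every clone (difference 3.88 ± 0.938, SD, n = 3, exact sign-flip p = 0.25). They regained a smaller share of what they had lost: the share was 42.6%, 50.4% and 41.1% for low-density CpGs and 46.6%, 55.4% and 46.3% for high-density CpGs (difference -4.76 ± 0.630, exact sign-flip p = 0.25). The Baseline that chose these CpGs also enters their loss. Over all CpGs, with no such choice, the difference was 2.18 points in gain and -6.28 in share. The bulk populations had a difference of the same sign in gain, 7.63 points in R1 and 7.50 in R2, and one of -0.803 and -0.783 in share, where low-density CpGs had regained 94.02% and 94.99% of their loss in R1 and R2.

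The same held along the distance to the nearest CpG. CpGs 2 to 3 bp from a neighbour gained 3.05, 6.52 and 9.05 points in Cl.3, Cl.6 and Cl.9 and regained 51.0%, 60.8% and 50.9% of the loss. CpGs 50 to 99 bp from a neighbour gained 8.12, 13.6 and 17.9 points and regained 41.9%, 49.6% and 40.5%. The distant CpGs gained 7.02 ± 1.90 points more and regained 10.2 ± 1.08 percentage points less of their loss (SD, n = 3), each difference having the same sign in 3 of 3 clones. Beyond 200 bp the gain was a little lower again, at 7.15, 12.7 and 16.8 points. The count of neighbours gave another order from the distance at its top end. Highly methylated CpGs with 16 or more others within 100 bp regained 33.5%, 46.4% and 38.0% of their loss, less in each clone than the 45.9%, 53.8% and 45.4% of CpGs with 4 to 7 others (difference -9.07 ± 2.89, SD, n = 3).

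**Figure D1:**
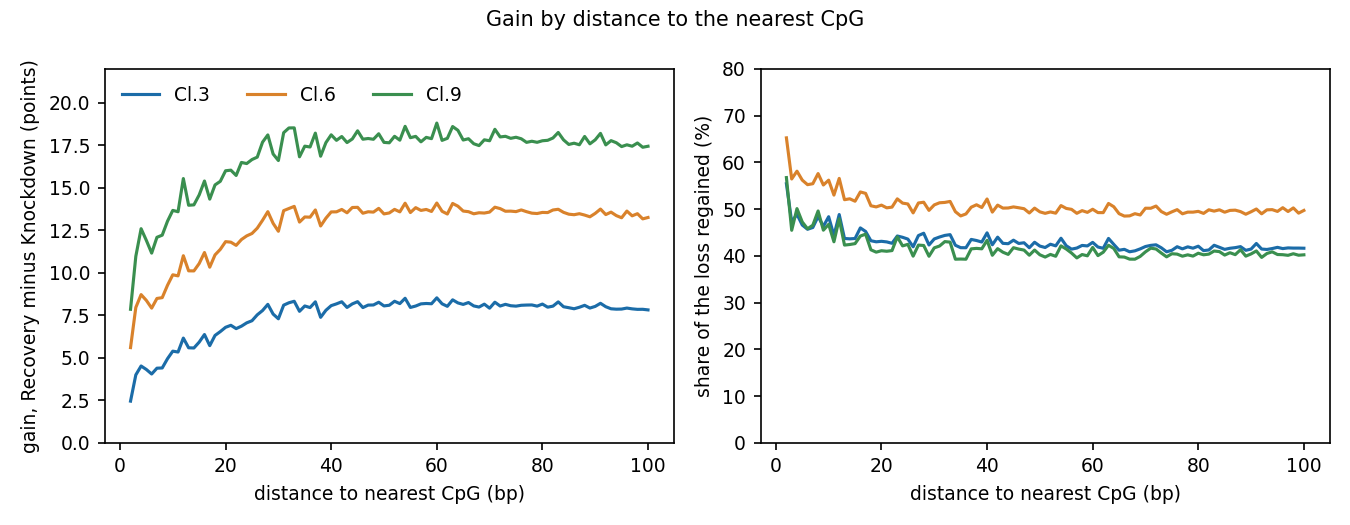
Gain in mC from Knockdown to Recovery (left, percentage points) and share of the Baseline-to-Knockdown loss regained (right, percent) of highly methylated CpGs against the distance to the nearest CpG (bp), with 1 line per shUHRF1 clone. In Cl.3, Cl.6 and Cl.9 the gain climbed from 2.45, 5.61 and 7.86 points at 2 bp to 8.24, 13.8 and 18.5 at 32 bp and changed little beyond, while the share regained in Cl.3 fell from 55.4% at 2 bp to 43.1% at 20 bp.

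Domains were compared next. PMDs are long stretches of intermediate methylation, often late-replicating, and HMDs are the rest of the methylated genome. Taking low-density CpGs that had started out highly methylated, so that composition differed less, HMD members gained 7.83, 13.5 and 18.4 points in Cl.3, Cl.6 and Cl.9, and PMD members 6.85, 10.5 and 10.1. The share of loss regained was 46.4%, 54.7% and 45.5% in HMDs against 28.0%, 30.9% and 18.7% in PMDs (difference 22.98 ± 4.28 percentage points, SD, n = 3, higher in 3 of 3 clones). High-density CpGs showed the same order, with 52.6%, 62.4% and 53.5% in HMDs and 32.5%, 37.2% and 24.9% in PMDs. Over all CpGs the gain was 5.85 ± 3.41 points larger in HMDs (exact sign-flip p = 0.25). Among the highly methylated low-density CpGs of Cl.9, those in PMDs stood at 50.5% at Recovery, still 43.7 points under their Baseline. The deficit of those in HMDs was 22.04 points. These deficits hold for CpGs chosen by a high Baseline. Over all low-density CpGs the mean loss was 20.7 points in PMDs and 26.4 in HMDs, and the mean gain 4.43 and 12.4.

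**Figure D2:**
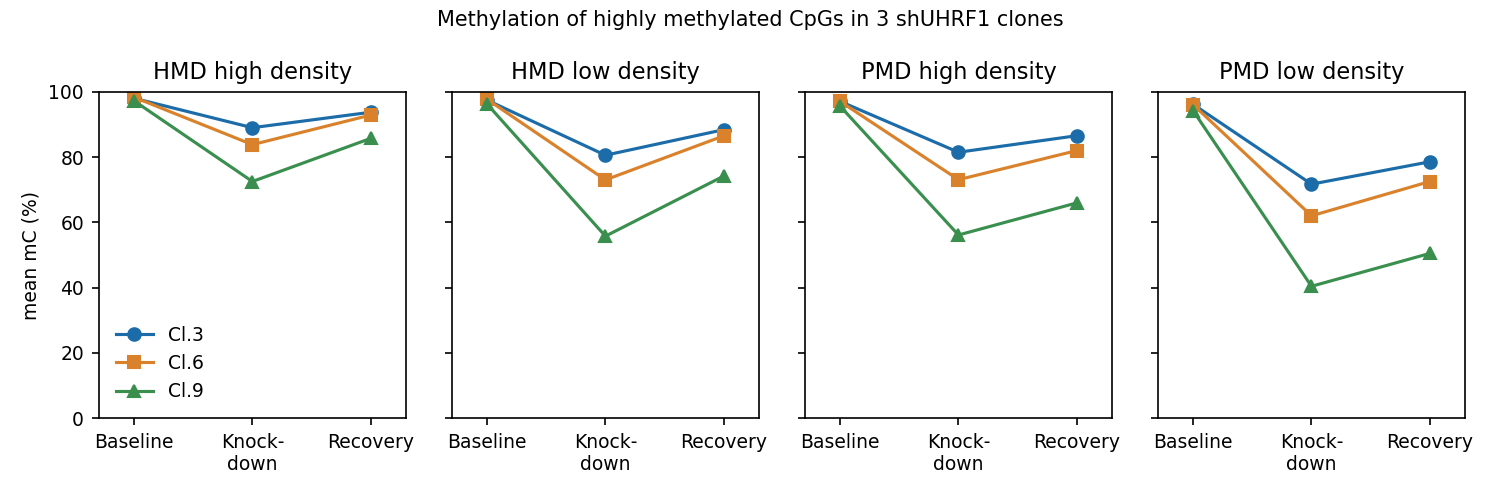
Mean mC (percent) of highly methylated CpGs at Baseline, Knockdown and Recovery in 4 classes of CpGs by Baseline domain and density, with 1 line per shUHRF1 clone. Recovery lies between Knockdown and Baseline in all panels, closest to Baseline for high-density CpGs of HMDs (93.8%, 92.9% and 85.8% in Cl.3, Cl.6 and Cl.9).

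Within HMDs the regained share differed by gene annotation. Highly methylated HMD CpGs in introns regained 50.2%, 59.0% and 51.0% of the loss, those between genes 46.0%, 55.2% and 44.8%, and those in promoters of protein-coding genes 36.6%, 43.5% and 36.0%. Introns exceeded intergenic CpGs by 4.77 ± 1.26 percentage points, and promoters fell short of introns by 14.7 ± 0.972 (SD, n = 3), each the same way in 3 of 3 clones. In points the gains differed by less than the spread between clones, by 0.545 ± 0.628 for introns minus intergenic CpGs and -1.83 ± 1.89 for promoters minus introns. Each of these was also the same way in 3 of 3 clones. In PMDs the intron share was 0.305 ± 0.398 above the intergenic share. It was higher in 3 of 3 clones, a difference smaller than the spread between them. PMD promoter CpGs, at 31.7%, 36.6% and 24.6%, were not below PMD introns, at 30.3%, 33.7% and 21.6%. Methylated promoter CpGs of HMDs thus stood at 86.6%, 84.7% and 74.3% at Recovery, against 91.3%, 89.99% and 80.9% in introns. Over all their CpGs, whatever the Baseline level, unmethylated regions (UMRs) outside PMDs gained 0.562, 0.360 and 1.02 points, and low-methylated regions (LMRs) outside PMDs gained 1.76, 2.02 and 1.90.

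**Figure D3:**
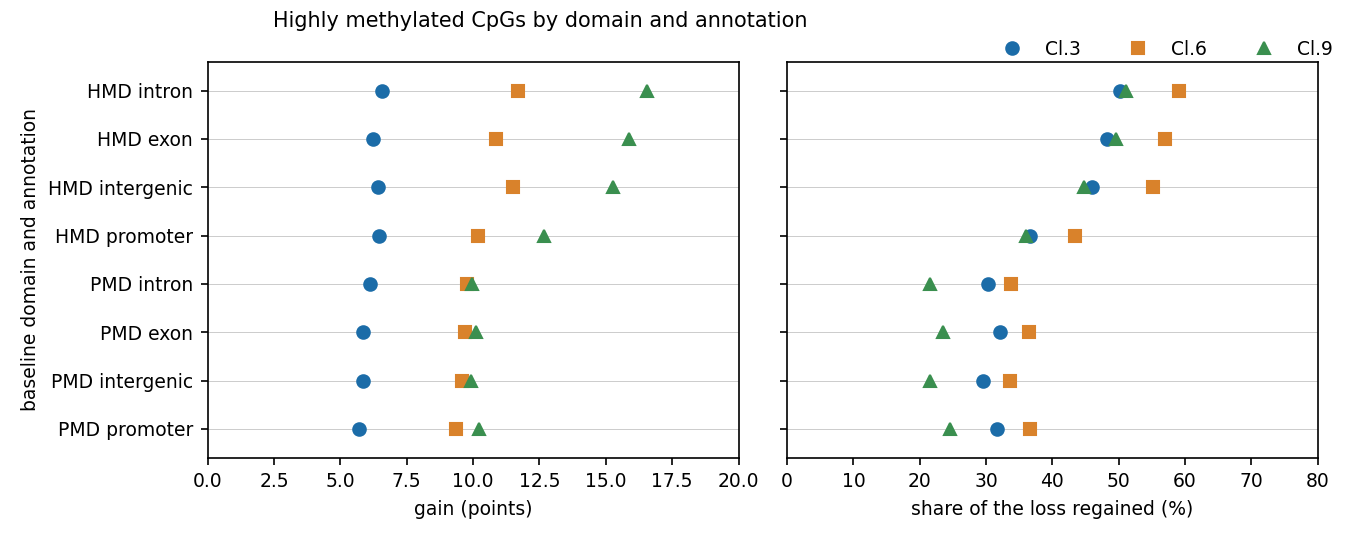
Gain (left, percentage points) and share of the loss regained (right, percent) of highly methylated CpGs by Baseline domain and gene annotation, with 1 symbol per shUHRF1 clone. Within HMDs the promoter class has the smallest share regained in each clone, 36.6%, 43.5% and 36.0%, and PMD classes lie lower than intron, exon and intergenic HMD classes.

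The bases beside an isolated CpG also ordered the regained share. Among highly methylated HMD CpGs with no other CpG within 35 bp, GCGC sites regained 60.5%, 69.4% and 63.2% of their loss and TCGA sites 36.2%, 43.999% and 31.7%, each context being counted with its reverse complement. The difference was 27.0 ± 3.89 percentage points (SD, n = 3, higher in 3 of 3 clones). Of all contexts these had the highest and the lowest mean share, so their difference is a description with no test. CCGG sites, also flanked by C and G, had a mean share of 47.9%. At Knockdown GCGC sites stood 16.1 ± 5.94 points above TCGA sites. In points, however, the gain of GCGC sites minus that of TCGA sites was -0.351 ± 1.78, within the spread between clones. ACGT sites started from the lowest Knockdown level, 72.8%, 64.4% and 44.3%, and gained 9.92, 15.7 and 21.3 points, more in every clone than TCGA sites (difference 3.79 ± 1.97), from Knockdown levels 3.45 ± 0.347 points lower. Isolated sites of the 3 contexts on chromosome 17, chosen after their values were seen and shown so that the flanks can be read, are these (hg38, plus strand, the CpG and its flanking bases in capitals).
GCGC, chr17:47087854-47087883: tgtggaagagacaGCGCtatctgtcctcta
ACGT, chr17:63114955-63114984: cacagcataagcaACGTtagaaaaaattat
TCGA, chr17:63238971-63239000: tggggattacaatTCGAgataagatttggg
The GCGC site, outside the annotated genes, held 97.9%, 96.1% and 95.4% at Knockdown and 100%, 97.0% and 100% at Recovery. The ACGT site, in TANC2, went from 74.5% to 80%, from 64.2% to 79.01% and from 35% to 57.8%. The TCGA site, also in TANC2, went from 93.2% to 89.1% in Cl.3, from 79.4% to 96.4% in Cl.6 and from 50% to 79.5% in Cl.9. These are examples of 48 to 94 reads and not a test of the contexts.

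Whether a region recovered was next set against how much methylation it had kept. Windows of 10 kb were sorted for each clone by the mean Knockdown mC of the other 2 clones, so that the sorting used none of the libraries compared. In windows where the other clones kept under 10%, the clone regained 18.98% (Cl.3), 15.4% (Cl.6) and 12.02% (Cl.9) of its loss. In windows where they kept 80% to 90%, it regained 68.3%, 73.2% and 55.7%. The share rose at each step in between in all 3 clones. The gain in points peaked in the middle in Cl.3 (6.47 points where the others kept 50% to 60%, 4.30 in the top class) and in Cl.6 (11.5 points at 60% to 70%), and it was still highest in the top class in Cl.9, at 15.95 points. Among windows with a Baseline of at least 80%, the share rose from 34.6% (others at 30% to 40%) to 68.3% in Cl.3 and from 32.3% to 55.8% in Cl.9, where it was 36.6% at 40% to 50% and 33.2% at 50% to 60%. The climb was thus not steady in Cl.9, nor in Cl.6, with 50.3% where the others kept 20% to 30%, 47.2% at 40% to 50% and 73.2% at the top of that clone. CpG density moved with this order, the share of high-density CpGs being 16.9% in the lowest and 51.3% in the highest class of Cl.3. Baseline moved with it too, at 23.2%, 22.6% and 14.1% in the lowest class and 97.2%, 97.5% and 94.6% in the highest. Among windows with a Baseline of at least 80% it still ran from 83.6% to 97.2% in Cl.3. The part of density and of Baseline in the result was not tested.

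**Figure D4:**
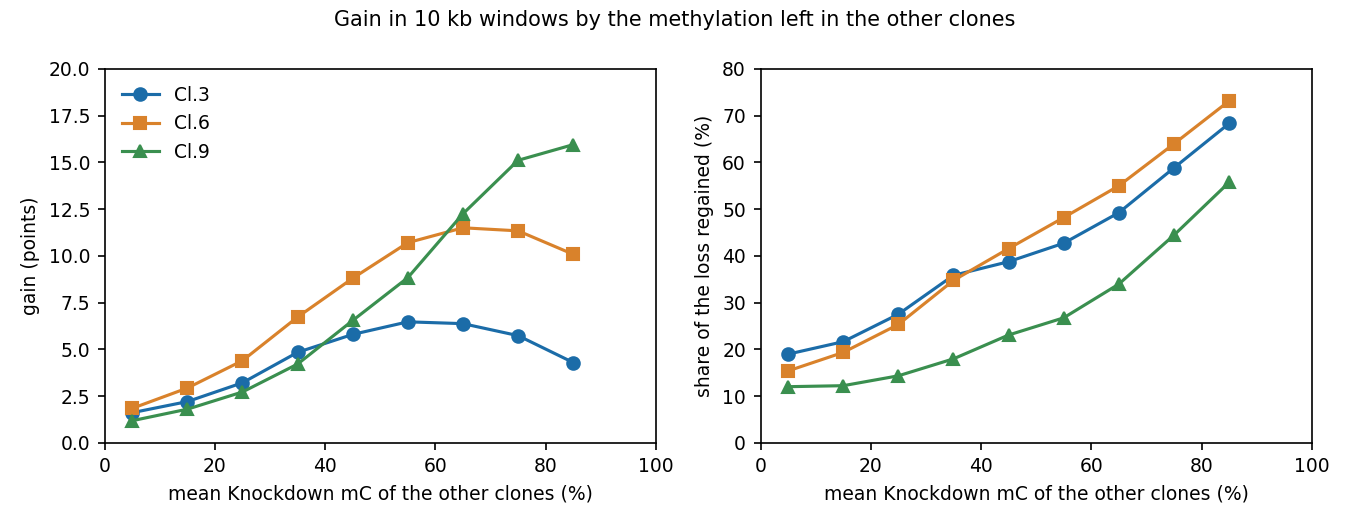
Gain (left, percentage points) and share of the loss regained (right, percent) in 10 kb windows grouped by the mean Knockdown mC of the other 2 clones (percent, 10-point classes), with 1 line per shUHRF1 clone. The share regained climbs from 18.98%, 15.4% and 12.02% in the lowest class to 68.3%, 73.2% and 55.7% in the highest.

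Across windows of 100 kb, edgeR's quasi-likelihood test on the 9 libraries of the clones, with the clone as a block, called 16985 of 28485 windows gained (59.6%) and 0 lost (0 also at an unadjusted p under 0.05) at an adjusted p under 0.05. limma called 17495 gained and 1 lost. The 6 Knockdown and Recovery libraries alone gave 25837 gained windows (90.7%) and 1 lost (0.00351%). In 98.6% of windows all 3 clones were higher at Recovery, and in 2 windows (0.00702%) all 3 were lower, both with under 0.1 reads per CpG in the shallowest library. Calls depended on Cl.6: without it 0 windows were called by edgeR and 1689 passed an unadjusted p under 0.05. Windows were classed by the share of their CpGs in a Baseline domain, as a mean over the clones. Of windows with at least 80% in Baseline HMDs, 13177 of 13374 were called gained on 9 libraries and 13374 on 6. Of those with at least 80% in Baseline PMDs, 110 of 3662 were called on 9 libraries and 2989 on 6. Of these PMD windows 95.96% were also higher in all 3 clones.

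Of the 6 windows picked by the largest gain in the least-changed clone, 5 had under 1 read per CpG in the shallowest library. The other covers part of ZEB1, the gene of a zinc-finger repressor that drives epithelial-to-mesenchymal transition (chr10:31300001-31400000, 982 CpGs). It went from 65.3% to 77.7% in Cl.3, from 61.2% to 75.0% in Cl.6 and from 49.02% to 64.3% in Cl.9, where Baseline had been 82.4%, 84.9% and 77.9%. The least change among the clones was in Cl.3, and each clone stopped short of its Baseline. The other named windows lay on chromosomes 9, 15 (with GOLGA8K), 10 (with SYT15B), 2 and 1.

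Part of the genome also changed class in the authors' domain calls. Of the length called PMD at Knockdown, 31.6% in Cl.3, 54.7% in Cl.6 and 24.1% in Cl.9 was called HMD at Recovery, 61.8%, 37.1% and 58.9% was still PMD, and 6.22%, 4.31% and 8.74% overlapped a UMR. Of the length called UMR at Knockdown, 81.1%, 81.5% and 81.1% was still UMR. The deposited UMR lists are very long, 1214 Mb at Knockdown and 993 Mb at Recovery in Cl.9, and classes overlap, 31.5% of that Knockdown UMR length being also PMD at Recovery. Little of the length called HMD at Knockdown in Cl.3 (0.228%) and Cl.6 (0.220%) became PMD, and in Cl.9 only 0.2997 Mb had been called HMD at Knockdown. An HMD is by the study's rule a stretch outside the called PMDs, LMRs and UMRs whose mean mC passes a cut. A stretch called PMD at Knockdown thus becomes HMD only if it is no longer called PMD and passes that cut. How large a gain this takes was not tested. The domains were called separately in each library, so these shares also move with how much was called.

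Gene bodies were called gained more often than promoters, but they also hold more reads, and the call rates were not tested against each other. Of 18509 gene bodies tested with edgeR, 14288 were gained (77.2%) and 0 lost (0 also at an unadjusted p under 0.05), with 97.2% higher and 0.0378% (7 gene bodies) lower in all 3 clones. Promoters were taken as the 1 kb before a gene's 5′ end and the 100 bp after it, and of 18482 tested, 654 were gained (3.54%) and 2 were lost (0.0108%), with 56.3% higher and 1.99% lower in all 3 clones. The 6 libraries alone called 5134 promoters gained (27.7%) and 15 lost (0.081%), among them all 654. Promoters with a mean Baseline of 85% or more gave 601 of the gained calls out of 4583 tested, and those under 10% gave 11 of 4141. The median change at that Baseline of 85% or more was 9.87 points in promoters (88.6% higher in all 3 clones) and 10.96 in gene bodies (99.4%), of which 96.96% were called. Promoter calls ended without Cl.6 (0 gained) and without Cl.9 (0 gained), were 294 without Cl.3, and were 0 by limma. In a simulation limma found 0% of 200 changes planted among 18482 promoters. In the data 56.3% of promoters were higher in all 3 clones, so this simulation cannot say why limma called 0. As a mean over promoters, 43.6%, 38.9% and 33.5% of the loss was regained in Cl.3, Cl.6 and Cl.9.

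Among the gained promoters with the largest change in the least-changed clone were 11 that are described here, OOSP3, EPB42, C11orf86, HOXC8, PLPPR5, MUSK, CXXC5, SDK2, FAM131B, UBE2D2 and SH3TC1, and of these all but SDK2 and FAM131B lay wholly in Baseline HMDs. The promoter of EPB42, an erythrocyte membrane protein, rose from 59.1% to 79.9% in Cl.3, from 53.2% to 79.2% in Cl.6 and from 32.6% to 58.4% in Cl.9 (edgeR adjusted p = 0.0425, mean gain 24.2 ± 2.99 points, SD, n = 3). That of HOXC8, a homeobox factor of the posterior body axis, had at least 79 reads over 37 CpGs. It rose from 59.5% to 87.2%, from 60% to 79.6% and from 50% to 75.4% (edgeR adjusted p = 0.0336). In both, Recovery exceeded Knockdown in each clone and stayed below the Baseline of the same clone.

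CXXC5 encodes a CXXC zinc-finger protein that restrains Wnt signalling, and its promoter rose from 66.3% to 88.7%, from 63.2% to 81.9% and from 42.9% to 65.7% (edgeR adjusted p = 0.0336). Near CXXC5 on chromosome 5, the promoter of UBE2D2, a ubiquitin-conjugating enzyme, rose from 76.1% to 94.3%, from 75.1% to 94.6% and from 67.3% to 89.3% (edgeR adjusted p = 0.026). The promoter of MUSK, the receptor kinase of the neuromuscular junction, rose from 69.2% to 89.4%, 63.4% to 83.2% and 53.3% to 72.4% (mean gain 19.7 ± 0.555 points, edgeR adjusted p = 0.0401). It had 8 CpGs and at least 65 reads, so its small SD over clones is no measure of counting error. OOSP3, of an oocyte-secreted protein family, rests on 5 CpGs and at least 56 reads, with a rise from 69.8% to 91.8%, from 65.9% to 88.6% and from 41.9% to 63.1% (edgeR adjusted p = 0.0447).

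The site of the largest gain inside the CXXC5 promoter, chosen after its values were seen, is printed as an example (hg38, plus strand, the CpG in capitals).
CXXC5, chr5:139646765-139646794: ggagagagactaaaCGcctccccaagggag
The site lies at -520 bp from the 5′ end, with its nearest CpG 60 bp away. It went from 27.8% to 70.6%, from 22.7% to 56.3% and from 11.1% to 38.2% in Cl.3, Cl.6 and Cl.9, on 16 to 36 reads. Each clone rose at this CpG and stayed below its Baseline. Of 12 CpGs of this promoter with at least 5 reads in each of the 9 clone libraries, 9 were higher in all 3 clones. The promoter has 32 CpGs, of which 31.25% are of low density.

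**Figure D5:**
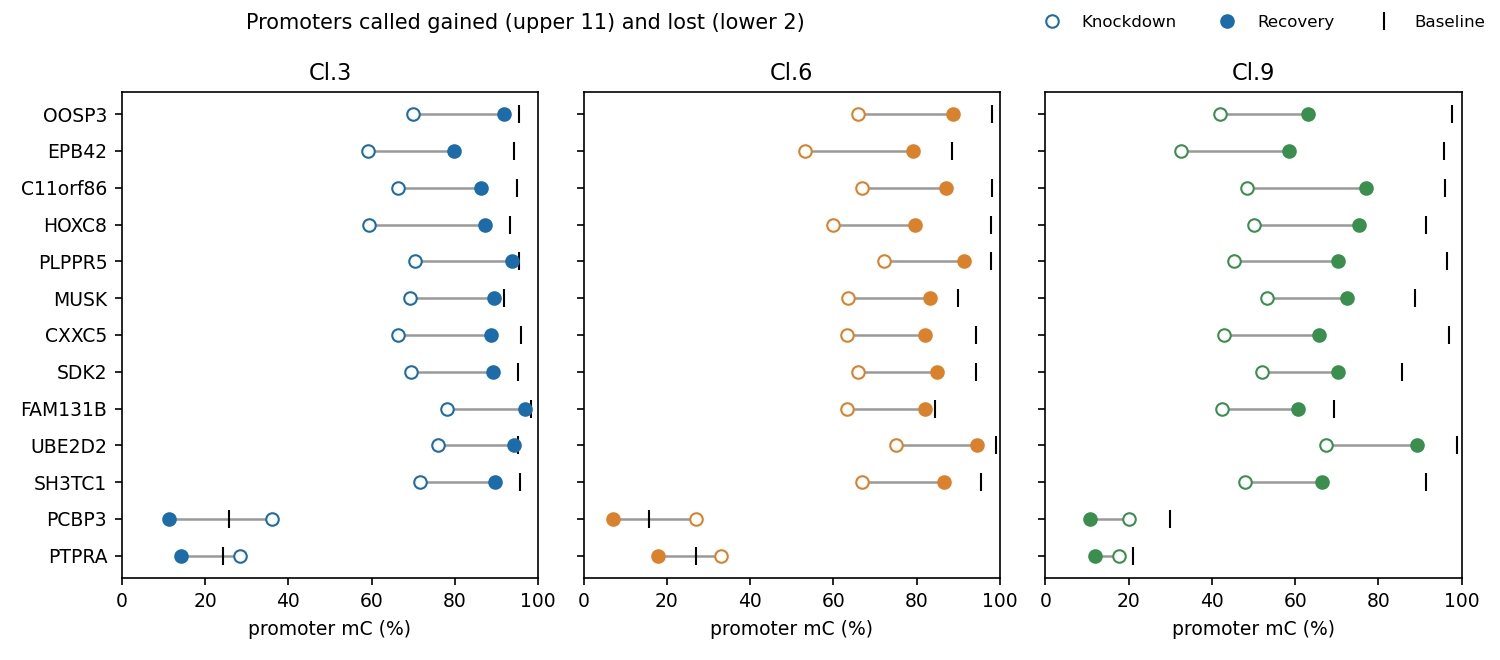
Promoter mC (percent) at Knockdown and Recovery, with the Baseline of the same clone, for 11 gained and the 2 lost promoters of the text, with 1 panel per shUHRF1 clone. Gained promoters move toward Baseline, while PCBP3 and PTPRA end below it in each clone, at 11.5% and 14.2% in Cl.3.

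Promoters of the methylation machinery and other groups were then read as lists. Over all promoters, 3.54% were called gained on 9 libraries and 27.7% on 6, 56.3% were higher in all 3 clones and the median change was 4.03 points, the background for each list. That background moves with Baseline: of promoters with a Baseline of 85% or more, 13.1% were called on 9 libraries, 88.6% were higher in all 3 clones and the median change was 9.87 points. At the 3.54% background 0 calls in a list of under 10 genes is no result about its members. Of 9 maintenance genes tested, 0 were called in either direction by edgeR on 9 libraries (3 gained with the 6 libraries), and 4 were higher in all 3 clones, with a median change of 2.34 points. USP7, the deubiquitinase that stabilises DNMT1 and UHRF1, went from 74.9% to 86.5% in Cl.3, from 66.3% to 78.6% in Cl.6 and from 53.5% to 67.8% in Cl.9 without passing the test (edgeR adjusted p = 0.11). UHRF2, the UHRF1 paralogue, went from 26.7% to 61.5% in Cl.3 but from 29.6% to 32.6% and from 32.6% to 35.6% in the others, and Cl.3 also stood above its own Baseline of 30.4%. It did not pass either (edgeR adjusted p = 0.146). LIG1, the ligase of Okazaki fragments, and HELLS, a chromatin remodeller, had the smallest mean changes, -1.78 ± 4.25 and -1.23 ± 5.60 points.

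Among 7 de novo genes tested 0 were called (1 gained with the 6 libraries), 3 were higher in all 3 clones (56.3% of all promoters) and the median change was 2.61 points (4.03 over all). DNMT3B, a de novo methyltransferase, had a promoter at 18.9%, 11.9% and 8.16% at Knockdown and 25.5%, 22.8% and 18.5% at Recovery in Cl.3, Cl.6 and Cl.9, with Baseline at 27.5%, 19.005% and 17.2% (edgeR adjusted p = 0.0588 on 9 libraries and 0.00604 on 6). All clones were thus higher, and Cl.6 and Cl.9 ended above their Baseline. Of 6 oxidation and repair genes 0 were called (1 gained with the 6 libraries), with 2 higher in all 3 clones and a median of 1.55 points. TET2, which oxidises methylcytosine, had the largest mean change in that list, 15.2 ± 2.95 points (63.3% to 79.2%, 63.3% to 75.2% and 52.4% to 70.1%, edgeR adjusted p = 0.0797). In gene bodies 7 of 9 maintenance genes, 8 of 8 de novo genes and 6 of 6 oxidation genes were called gained, at a background of 77.2%.

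Of 22 tumour suppressor promoters 1 was called gained (8 with the 6 libraries), 15 were higher in all 3 clones and the median change was 5.69 points. The call was GATA5, a gut transcription factor, which went from 78.9% to 89.5%, from 68.3% to 87.3% and from 65.6% to 76.1% (edgeR adjusted p = 0.0444). MGMT, the enzyme that repairs O6-methylguanine, had the largest mean change but an uneven one, from 46.6% to 54.2% in Cl.3, from 27.1% to 63.3% in Cl.6 and from 33.2% to 36.4% in Cl.9, and was not called (edgeR adjusted p = 0.106). RASSF1 and CACNA1G had the smallest, -2.96 ± 8.42 and -2.12 ± 5.03 points. Of 9 Wnt antagonists 1 was called (1 with the 6 libraries), 8 were higher in all 3 clones and the median was 5.42 points, at a median Baseline of 90.003%. The call was DACT1, from 76.2% to 87.5%, from 75.4% to 90.3% and from 61.6% to 78.9% (edgeR adjusted p = 0.0399).

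Of 20 germline promoters, which are normally methylated in somatic cells, 3 were called gained (8 with the 6 libraries), 13 were higher in all 3 clones and the median was 7.08 points. The median Baseline of this list was 94.3%, so the promoters with a Baseline of 85% or more, with 88.6% higher and a median of 9.87 points, are its nearer background. The calls were SYCP3 and HORMAD1, of the meiotic chromosome axis, and BRDT, a testis bromodomain protein, which went from 87.8% to 95.1%, from 82.1% to 94.8% and from 75.0% to 84.5% (edgeR adjusted p = 0.0335). Of 20 imprinted promoters 2 were called gained (3 with the 6 libraries), 11 were higher in all 3 clones and the median was 5.56 points. PEG3 and ZIM2 share the same 41 promoter CpGs and so count as separate members with identical values, both among the 11. FAM50B went from 87.8% to 93.9%, from 75.5% to 87.2% and from 63.9% to 81.2% (edgeR adjusted p = 0.0386), and DIRAS3 from 90.5% to 95.8%, from 83.97% to 93.4% and from 69.0% to 88.9% (edgeR adjusted p = 0.0399). Both were near fully methylated at Baseline in these cells. NAP1L5 moved apart between clones, from 51.5% to 33.1% in Cl.3 but from 47.4% to 49.4% in Cl.6 and from 38.2% to 46.4% in Cl.9.

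Interferon and double-stranded RNA response promoters had 0 calls among 20 on 9 libraries and 10 gained on 6, with 14 higher in all 3 clones and a median of 7.15 points. OAS3, a sensor of double-stranded RNA, had the largest mean change (52.5% to 59.5%, 42.5% to 61.2% and 26.0% to 44.9%, edgeR adjusted p = 0.101), and IFIH1, another such sensor, stayed at or under 1.76% through Knockdown and Recovery. Colon epithelium promoters had 0 calls among 18 on 9 libraries and 9 gained on 6, with 11 higher in all 3 clones and a median of 6.99 points. KRT20, an intestinal keratin, went from 69.6% to 91.4%, from 74.8% to 85.9% and from 61.2% to 72.6% (edgeR adjusted p = 0.0942). On 6 libraries 27.7% of all promoters were called gained, the background for these counts.

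Further loss after doxycycline withdrawal was rare. The 2 promoters called lost were PCBP3 and PTPRA, and in both the level at Recovery was lower than in the Baseline of the same clone. The promoter of PTPRA, a receptor-type tyrosine phosphatase (chr20:2872420-2873520, 92 CpGs), fell from 28.3% to 14.2% in Cl.3, from 33.0% to 17.8% in Cl.6 and from 17.6% to 11.8% in Cl.9 (edgeR log2 odds -1.03, adjusted p = 0.0469), with Baseline at 24.3%, 27.0% and 21.0%. Knockdown was thus above Baseline in Cl.3 and Cl.6 and below it in Cl.9. The promoter of PCBP3, a poly(C)-binding RNA-binding protein (chr21:45642694-45643794, 133 CpGs, mostly in Baseline PMDs), fell from 36.1% to 11.5%, from 27.0% to 7.11% and from 20.1% to 10.6% (edgeR log2 odds -1.77, adjusted p = 0.0313), from Baselines of 25.7%, 15.6% and 29.8%. PCBP3 rests on 131 reads in its shallowest library, 0.985 per CpG, whereas PTPRA had at least 557 reads. Neither call held when any clone was left out.

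The PTPRA site with the largest fall is shown as an example, chosen after its values were seen (hg38, plus strand, CpGs in capitals).
PTPRA, chr20:2873021-2873050: tccccagtgagatcCGtCGttctttgcagc
The first of its CpGs, at -385 bp from the 5′ end, went from 50% to 25% in Cl.3, from 30% to 5.88% in Cl.6 and from 7.69% to 0% in Cl.9, on 8 to 26 reads. Of 34 CpGs of this promoter with at least 5 reads in each of the 9 clone libraries, 1 was lower in all 3 clones, and its counting error is wide.

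Of the 367 promoters lower in all 3 clones (1.99%), 243 had a mean Baseline under 10%, a class whose median change was 0.162 points, and 0 had one of 85% or more. The 13 further promoters called lost on the 6 libraries alone were mostly of this kind, for example SRM, spermidine synthase, at 0.463% to 0.284%, 1.65% to 0.499% and 0.516% to 0.130%. MCOLN2, a lysosomal cation channel, and PLAAT1, a phospholipid-modifying enzyme, were the exceptions with the largest mean falls over the clones. MCOLN2 went from 32.7% to 18.2%, from 35.1% to 23.7% and from 21.0% to 18.1% (edgeR adjusted p = 0.0303 on 6 libraries and 0.123 on 9). PLAAT1, wholly in Baseline PMDs, went from 67.3% to 61.0%, from 60.7% to 43.5% and from 52.5% to 43.8% (edgeR adjusted p = 0.0412 on 6 libraries and 0.215 on 9).

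A finer search used windows of 1 kb with at least 10 CpGs and 100 reads in all 15 libraries, of which there were 833886. In 42.4% of them mC was at least 5 points higher at Recovery in all 3 clones, and in 21 windows (0.00252%) it was at least 5 points lower in all 3. Of these 21, 71.4% had at least as many CpGs inside PMDs as outside them in at least 1 clone. By the same rule 14.3% lay in HMDs in all 3. For all such windows these shares were 27.6% and 66.2%. A window in FBXO21, an F-box protein gene (chr12:117155001-117156000, 47 CpGs), fell from 52.7% to 35.3%, from 57.7% to 34.4% and from 43.2% to 28.7%, where Baseline had been 62.9%, 55.6% and 40.7%, so Knockdown was above Baseline in Cl.6 and Cl.9. A window in STOM, the gene of stomatin (chr9:121369001-121370000), fell from 57.1% to 30.7%, from 51.9% to 37.9% and from 48.4% to 36.2%, from Baselines of 59.2%, 67.03% and 61.7%. In IGF2, the imprinted growth factor gene (chr11:2139001-2140000, 122 CpGs), a window fell from 30.5% to 17.2%, from 45.0% to 19.7% and from 30.0% to 17.1%, with Baseline at 30.6%, 51.8% and 18.9%. Its Knockdown in Cl.9 was above Baseline, and its shallowest library had 165 reads over the 122 CpGs. These windows were picked by their falls, so the values are a description with no test. The 0.334% of windows with 80 or more CpGs and a Baseline of 30% to 60% that fell this way was the highest share of any class, though it counts 2 windows of 598. No window with a Baseline of 85% or more did.

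The shDNMT1 populations gave the contrast. Over all CpGs R1 and R2 lost 34.6 and 35.4 points and gained 33.4 and 34.2, or 96.6% and 96.8% of the loss, whereas Cl.3, Cl.6 and Cl.9 had lost 12.5, 18.8 and 28.9 and regained 42.1%, 47.4% and 38.4%. In points the clones 25.4 fewer on average (exact permutation of 3 against 2 populations, two-sided p = 0.2 as the doubled one-sided p, the smallest this form of the test can give). The test of the difference in gain, an interaction in edgeR on 15 libraries, called 28420 of 28482 windows as smaller in the clones (99.8%) and 0 as larger (0 also at an unadjusted p under 0.05, 1 by limma). Among promoters 11869 of 18471 were smaller (64.3%) and 3 larger (0.0162%). At PTPRA both bulk populations rose, from 11.4% to 24.3% in R1 and from 7.39% to 16.8% in R2, while the clones fell (interaction log2 odds -2.36). At PCBP3 they rose from 25.4% to 41.0% and from 14.3% to 37.5% (interaction log2 odds -3.18). Both promoters were chosen by their fall in the clones, so these odds are a description with no test. The FBXO21 window likewise went from 32.1% to 48.9% and from 28.0% to 55.1% in the bulk populations, and the IGF2 window from 20.0% to 16.1% in R1 and from 16.4% to 21.8% in R2. Among the 11 gained promoters named here, FAM131B was the exception whose gain was not called different from the bulk populations (interaction adjusted p = 0.169 by edgeR).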

How the data were processed

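Whole-genome bisulfite reads were aligned by the authors with the Meth10X pipeline, and the build named in the labels is hg38. The authors deposited raw counts per CpG and library, the reads that read C and all reads covering the site, in 3 tables with 30 columns, and 1 list per library of domains. PMDs, LMRs and UMRs were called with MethylSeekR per the study's methods, and stretches between them with a high enough mean mC were taken as HMDs with bedtools. The submitters' processing notes name bedtools 2.25.0. How read duplicates were treated is not given in the sources used here.

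Samples were grouped by title. mC is methylated over all reads at CpGs with at least 5 reads in the libraries compared, and the domain lists of each clone's Baseline placed its CpGs. Loss is Baseline minus Knockdown, gain is Recovery minus Knockdown, and the share regained is their ratio of class means. CpG sequences came from the reference genome (hg38) and genes from GENCODE release 44.

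Counts were summed over 100 kb windows, promoters and gene bodies (which start 1 kb into the gene), keeping regions with 5 or more CpGs and 50 or more reads in each library, and were tested with edgeR 4.0.16 in R 4.3.3 (glmQLFit and glmQLFTest, methylated against unmethylated counts, the clone as a block, the 9 clone libraries, adjusted p under 0.05). limma 3.58.1 on log2 ratios with a pseudocount of 1 was an alternative, as were the 6 libraries alone, all 15 libraries, no block, other minimums and window sizes, and leaving out each clone. Fisher's exact test was computed CpG by CpG in Python 3.11.15 with a function compiled by numba 0.67.0. The block is the clone, named in the titles: deviations from the group mean correlated between Knockdown and Recovery of the same clone with r of 0.828, 0.955 and 0.863 across 28098 windows. Tested on simulated data with 200 changed regions, edgeR recovered 99.5% of windows (3.86% of calls false) and 87% of promoters (7.45% false), and limma 100% of windows and 0% of promoters. Fisher's test on simulated CpGs at the depth of Cl.9 called 61.1% of those changed.

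Promoters called and of 1 sign in the 3 clones were ranked by the change in the least-changed clone, and the first 12 in each direction were named, with windows likewise (first 6). Up to 4 genes per list were named by the largest and smallest mean change. Some results that these rules pick are not reported here. CpGs printed as called were chosen in the same way among those with at least 20 reads in the 9 clone libraries. The members and lists were chosen with earlier results of these data known.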

Additional observations from a re-analysis of the deposited data

Results flagged for a closer look

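Differences in gain between the shUHRF1 clones and the shDNMT1 bulk populations were picked out by the interaction test of edgeR. The gain was smaller in the clones in 28420 windows of 100 kb and in 11869 promoters. It was larger in the clones in 3 promoters, those of H2BC21, a histone gene, ADAMTS6, a secreted protease, and UBL3, a ubiquitin-like protein, and all 3 were at or under 1.40% methylated in every Knockdown and Recovery library. In 253 promoters mC was lower at Recovery in all 3 clones and higher in both bulk populations. That is a count of directions among the 367 promoters lower in the clones, with no test. Over all promoters the mean change in R1 and R2 was 21.1 and 21.6 points. Of the 367, 243 had a mean Baseline under 10%, a class whose mean change in R1 and R2 was 1.42 and 1.43 points. The share of all promoters higher in both bulk populations was not computed, so the count has no background here.

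The promoters of PCBP3 and PTPRA moved in opposite directions in the clones and the bulk populations, with interaction log2 odds of -3.18 and -2.36. They were chosen by their fall in the clones, so the odds are a description. Kind of population, shRNA and count table cannot be told apart in these differences. PCBP3 had 0.985 reads per CpG in its shallowest library.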

How the results depend on the processing

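The genome-wide gain, the density and domain differences and the difference from the bulk populations kept their sign under every alternative run. Leaving out each clone moved the genome-wide gain between 7.06 and 9.98 points, the density difference in gain between 3.46 and 4.39 and in share between -4.54 and -5.12, the domain difference between 4.09 and 7.49, and the difference from the bulk populations, leaving out each population, between -23.8 and -26.8. Leaving out CpGs with over 100 reads, an alternative chosen after seeing the data, gave a genome-wide gain of 8.40. With a change of at least 0.3 required, 0 CpGs were called gained in Cl.3.

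Without the replicate block 0 windows and 0 promoters were called gained, and 0 promoters lost, so the calls rest on the pairing by clone. The 6 libraries gave 25837 gained and 1 lost window and 5134 gained and 15 lost promoters. All 15 libraries gave 2136 gained and 5 lost promoters. limma gave 1 lost window, 0 gained and 0 lost promoters, and 1 window with a larger gain in the clones. A minimum of 1 read gave 1 lost window. Windows of 10 kb gave 143163 gained of 279557. A minimum of 200 reads left 1 gained and 0 lost promoters of 13473, and promoters centred on the 5′ end 73 gained and 0 lost. The causes were not tested. Leaving out each clone gave 0 to 18438 gained windows (0 without Cl.6) and 0 to 294 gained promoters (0 without Cl.6 or Cl.9), with 0 lost promoters each time, and leaving out each population 0 to 1 windows with a larger and 27242 to 28442 with a smaller gain in the clones. Of the 14 promoters picked by the rule, 14 kept their call with the 6 libraries and with all 15, 3 without Cl.3, and 0 reversed in any setting.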

Other observations

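By chromosome, leaving out Y, the mean gain ran from 4.65 points on chromosome 21 to 5.75 on chromosome 22 in Cl.3, from 7.66 on chromosome 21 to 9.81 on chromosome 4 in Cl.6, and from 9.28 on chromosome 18 to 12.6 on chromosome 4 in Cl.9. Highly methylated CpGs within 1 Mb of a chromosome end regained 44.4%, 51.3% and 43.1% of their loss in Cl.3, Cl.6 and Cl.9, and those over 10 Mb away 44.3%, 52.9% and 43.8%.

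The clones gained in similar places. Across 28098 windows of 100 kb the gain of Cl.6 and Cl.9 correlated with r = 0.862, that of Cl.3 and Cl.6 with r = 0.753 and that of Cl.3 and Cl.9 with r = 0.749. These are descriptions across windows, which are not independent and share domain class and CpG density.

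Highly methylated CpGs that lay inside UMRs or LMRs at Baseline regained a smaller share of their measured loss than those in HMDs. Outside PMDs those in UMRs regained 20.2%, 17.8% and 14.7% of the loss in Cl.3, Cl.6 and Cl.9. Those in LMRs regained 23.2%, 24.6% and 15.5%, and those in HMDs 48.2%, 57.1% and 48.3%. The mean loss was 41.7 points in UMRs, 40.3 in LMRs and 22.2 in HMDs. The Baseline library that chose these CpGs also placed their domains and enters their loss. A Baseline read too high raises the loss and lowers the share, and how far it did was not tested. Falls of 0.3 or more from Knockdown to Recovery were seen at 2.84%, 3.94% and 1.05% of the UMR CpGs, against 0.452%, 0.286% and 0.183% in HMDs. These shares include counting error, which is wider near 50%, and the UMR CpGs stood at 67.7%, 52.05% and 41.5% at Knockdown against 84.3%, 77.9% and 63.7% in HMDs, so the shares cannot be compared directly.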
